A study of Orbicella faveolata with 56 samples.

Results

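Fragments of inshore-origin corals kept at an offshore transplant site were compared with fragments of the same corals kept at an inshore transplant site, all held at 30 °C. The libraries were chosen by their labels: 16 of the 56 in the series, 8 from the offshore site and 8 from the inshore site, with 1 of each from every one of 8 corals. The species is Orbicella faveolata, a massive reef-building coral, and the study, set in the Florida Keys, split each of 14 corals into 4 fragments by transplant site and by temperature. Temperature was brought to its level over 7 days and held for 6 days before RNA was taken from coral tissue, and 30 °C was the study's control level, so no fragment compared here was heated to 32 °C. Corals A3, A5 and A6 carry 1 genotype label, In1, and come from 1 collection site, while B1, B2, B3, B4 and B6 carry the labels In4, In5, In6, In7 and In2. The 8 corals are therefore 6 genotypes, and a p-value over 8 corals counts In1 corals as separate animals. Set beside them are 16 libraries of the same corals at 32 °C, and 12 libraries at 30 °C from 6 corals of offshore origin, each its own genotype and all from 1 collection site, with 6 libraries from each transplant site. How long fragments stayed at a site, and how the sites differed, is not in the labels.

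A coral polyp houses dinoflagellate algae inside the cells of its gut lining and lives largely on the sugars and lipids that they pass on. Several genera of algae can take this role, and Durusdinium trenchii is a symbiont known from warm and variable reefs and for keeping its place in corals under heat. Corals moved between reefs can keep, lose or change their algae, and they can also adjust their own transcript levels. The deposited counts fall into a host table of 87440 rows, each an assembled transcript, and a table of 52359 rows named for D. trenchii. Other symbiont genera were not analysed here. The files pair no identifier with a gene name, so rows are described by identifier only, and neither the tissue label nor any pathway could be checked against marker genes.

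Host counts per library ran from 4345249 to 5193324 at the offshore site and from 4677316 to 5919598 at the inshore site. Each coral's offshore-site library held fewer host counts than its inshore-site library, from 75.1% of the inshore-site total in B3 to 97.5% in B2. The mean difference was −0.18 ± 0.11 on the log2 scale (SD, n = 8), lower in 8 of 8 corals, with an exact two-sided sign-flip p of 0.00781. That p is the smallest that 8 corals allow, and it was 0.0234 after Benjamini-Hochberg adjustment over 6 such tests. With In1 averaged to 1 unit the exact p was 0.0312, the smallest that 6 genotypes allow. The fits scale for library size, and thinning every host library to the smallest one left the count of called rows at 0.

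No row of the host table passed the test for a site difference in inshore-origin corals at 30 °C. Of 25201 rows tested, 0 had an adjusted p under 0.05 (0% called; edgeR quasi-likelihood F test with coral as a block), and the smallest adjusted p was 0.0931. At an unadjusted p under 0.05 there were 1800 rows, or 7.14% of those tested, 870 of them higher (3.45%) and 930 lower (3.69%) at the offshore site. DESeq2 called 36 of the 25348 rows to which it gave an adjusted p, 29 higher and 7 lower. The count was 0 in edgeR with each coral left out in turn, without the coral block and with In1 corals summed, and 764 when rows with low counts were kept in.

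The absence of calls came with narrow estimates for most rows. The median standard error of a log2 fold change was 0.18 and the median absolute log2 fold change was 0.13. For 22709 rows, 90.1% of those tested, the 95% interval of the site difference lay wholly within a 2-fold change in either direction, and for 99.4% it lay within 4-fold. The 100 most abundant rows, which together held 16.2% of host counts, are described by the same measures. Of the 99 that were tested, 6 had an unadjusted p under 0.05 (6.06%), 3 higher and 3 lower, with a median log2 fold change of 0.03 against −0.01 over all rows. A change of over 2-fold was estimated for 2 abundant rows, both higher.

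**Figure D1:**
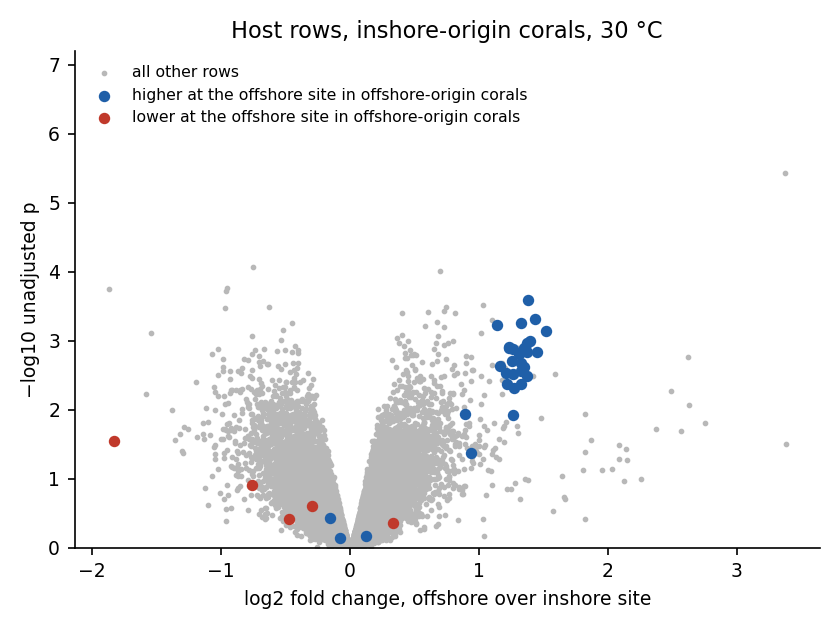
Each point is 1 of 25201 host rows in inshore-origin corals at 30 °C, with the log2 fold change of the offshore over the inshore site on the x axis and −log10 of the unadjusted edgeR p on the y axis. Blue and red points are rows that separate the sites in offshore-origin corals, 32 higher and 5 of 43 lower rows that could be tested here. Most blue points lie to the right of the bulk of rows, and 1 grey point, at log2 3.37, stands above all others.

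The 4 rows described next are those with the smallest p in each direction among rows that moved the same way in at least 75% of pairs. They were chosen after their values were seen, because the rule for naming rows asked for an adjusted p under 0.05 and no row had one. Levels are given as CPM, the host counts of a row scaled to a common library total. OFAVBQ_DN197553_c6_g3 stood at a median of 7.90 CPM at the offshore site (lowest 0, highest 69.3) and 0.388 CPM at the inshore site (lowest 0, highest 14.1). It was higher at the offshore site in 7 of 8 corals, and B4 had 0 counts at both sites. The log2 fold change was 3.37 ± 0.39 (SE) with an edgeR adjusted p of 0.0931. Coral A5 was the highest at both sites, at 69.3 and 14.1 CPM, followed by B3 at 41.8 CPM against 2.21 CPM. The groups overlapped, since the offshore-site values of B6 and A6, at 1.75 and 1.98 CPM, and the 0 of B4 lay below the inshore-site values of A5 and B3. In the 32 °C fragments OFAVBQ_DN197553_c6_g3 was higher at the offshore site in 5 of 8 corals and lower in 1, B4. It had too few counts to be tested at 32 °C. At 30 °C it could be tested in 5 of the 8 fits that leave out a coral (edgeR adjusted p = 0.0661 to 0.502).

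Other rows of the same part of the assembly differed between sites in some corals. Another 12 rows share the leading identifier DN197553, and none of them had enough counts to be tested. Their summed level was 187 CPM in A5 at the offshore site against 8.38 CPM at the inshore site, 147 against 0.679 CPM in B3, and 26.9 against 0.721 CPM in A3. In the other 5 corals the sum was at most 2.58 CPM at the offshore site and 2.77 CPM at the inshore site. In the 32 °C fragments the same sum was 104 CPM at the offshore site against 0.328 CPM at the inshore site in A3, and 70.6 against 0.234 CPM in B3. In A5, the highest coral at 30 °C, it was 3.42 against 0.396 CPM at 32 °C. A6 had 19.6 CPM at the offshore site against 13.6 CPM at the inshore site at 32 °C. High levels thus recurred in other fragments of A3 and B3 at the offshore site, and B4 went the other way at 32 °C, with 0.583 CPM at the offshore site and 9.30 CPM at the inshore site.

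OFAVBQ_DN213750_c1_g4 was higher by a smaller and more even amount. Its median was 23.7 CPM at the offshore site (15.2 to 41.7) and 14.7 CPM at the inshore site (7.80 to 26.5), and it was higher at the offshore site in 8 of 8 corals although the groups overlapped. The log2 fold change was 0.69 ± 0.12 (SE, edgeR adjusted p = 0.587). In the 32 °C fragments of the same corals it was again higher in 8 of 8, by 0.39 ± 0.15 on the log2 scale (SE, edgeR adjusted p = 0.845). In offshore-origin corals at 30 °C the estimate was −0.30 ± 0.18 (SE), and the difference between origins was 1.01 ± 0.21 (inshore minus offshore origin, SE, edgeR adjusted p = 0.132).

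The 2 rows with the smallest p among lower ones had estimates near 0 or of opposite sign at 32 °C. OFAVBQ_DN225112_c3_g1 stood at a median of 152 CPM at the offshore site (87.6 to 282) and 247 CPM at the inshore site (173 to 387), lower at the offshore site in 8 of 8 corals. Its log2 fold change was −0.75 ± 0.13 (SE, edgeR adjusted p = 0.587), against −0.11 ± 0.23 in the 32 °C fragments. OFAVBQ_DN199641_c7_g1 stood at 1.83 CPM at the offshore site (0.595 to 6.56) and 4.14 CPM at the inshore site (0.866 to 11.1), also lower in 8 of 8. Its change was −0.95 ± 0.18 at 30 °C (SE, edgeR adjusted p = 0.587) and 0.27 ± 0.25 at 32 °C. A test of the difference between temperatures gave −1.19 ± 0.35 for this row (30 °C minus 32 °C, SE, edgeR adjusted p = 0.982), so the difference is not shown after adjustment over all rows.

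**Figure D2:**
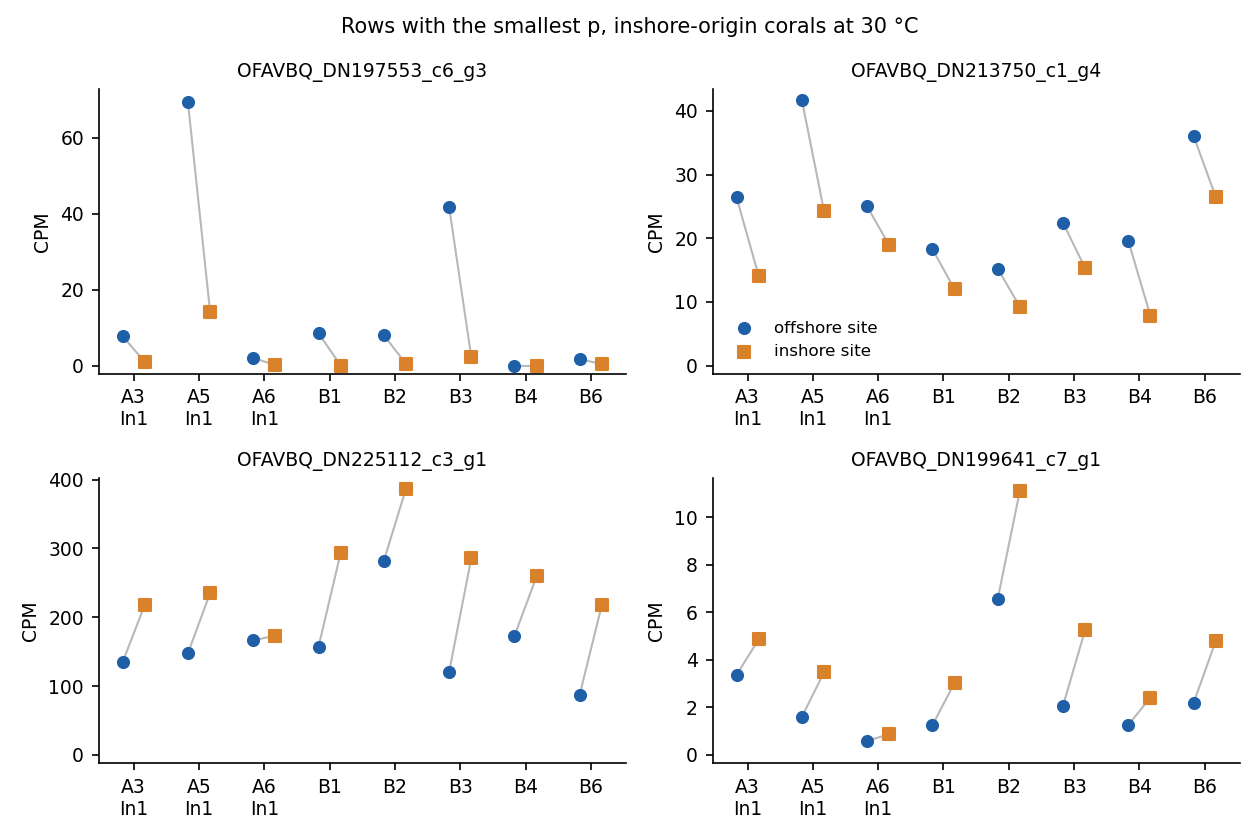
Each panel shows the CPM of 1 host row in the 8 inshore-origin corals at 30 °C, with the offshore-site fragment (blue circle) left of the inshore-site fragment (orange square) of the same coral and a line joining them. The top panels show the rows with the smallest p among higher ones and the bottom panels those among lower ones. The top left row is highest in A5 and B3, at 69.3 and 41.8 CPM at the offshore site, and the other 3 rows moved the same way in all 8 corals.

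Some host rows moved the same way in every coral. Of the 25201 rows, 169 were higher at the offshore site in all 8 pairs (0.671%) and 158 were lower in all 8 (0.627%), together 1.3%. Random signs in 8 independent pairs agree in all 8 with a probability of 0.00781, and 3 of these pairs share genotype In1. Whether the counts exceed what random signs give was not tested. The 32 °C fragments come from the same corals but share no library with the 30 °C ones, so they give a second reading of the same site difference. On its own the 32 °C comparison also called 0 of 25418 rows (0%; edgeR), and DESeq2 called 45. At an unadjusted p under 0.05 there were 1442 rows (5.67%), 633 higher (2.49%) and 809 lower (3.18%). Of the 169 rows higher in every pair at 30 °C, 168 could be tested at 32 °C, where 111 had the same sign (66.1%) and 28 an unadjusted p under 0.05 with that sign (16.7%). Of the 158 lower rows, 157 could be tested, with 94 of the same sign (59.9%) and 8 under 0.05 (5.10%). Over all rows tested at both temperatures, 54.9% had the same sign and 3.70% had that sign with an unadjusted p under 0.05. All 8 pairs agreed at both temperatures for 17 higher rows and 4 lower rows.

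A direct test found no row whose site difference differed between 30 and 32 °C. It called 0 of 29680 rows (0%; edgeR with coral as a block, 1217 at an unadjusted p under 0.05, or 4.1%), while DESeq2 called 25. With coral A6 left out edgeR called 1.

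Host libraries were more alike within a genotype than within a transplant site. Across the 25201 rows, which are not independent replicates, the 2 libraries of a coral correlated at a median r of 0.970 (log2 of CPM plus 1, lowest 0.889, highest 0.976, 8 pairs). Libraries of different genotypes correlated at a median of 0.876 within the offshore site and 0.883 within the inshore site (25 pairs each), and at 0.879 across sites (50 pairs). The lowest same-coral value apart from A6 was 0.931, in B3, and it was still above the highest value between genotypes, 0.914. For 14 of the 16 libraries the most similar library was the same coral at the other site, and for the remaining 2, both from A6, it was another In1 coral. Part of these values is shared sequence and depth, since all libraries were scaled alike and read against 1 assembly.

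Within In1, a single library stood out. The offshore-site libraries of A3, A5 and A6 correlated with each other at 0.956 to 0.968 (3 pairs). At the inshore site A3 and A5 correlated at 0.973, but A6 correlated with them at 0.918 and 0.904. A6 at the offshore site was closer to A5 at the inshore site (0.966) than to its own inshore-site fragment (0.889). By the limit set for libraries that stand apart, a mean correlation over 3 median absolute deviations below the median, the A6 library did not qualify, and no library of the 16 did.

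**Figure D3:**
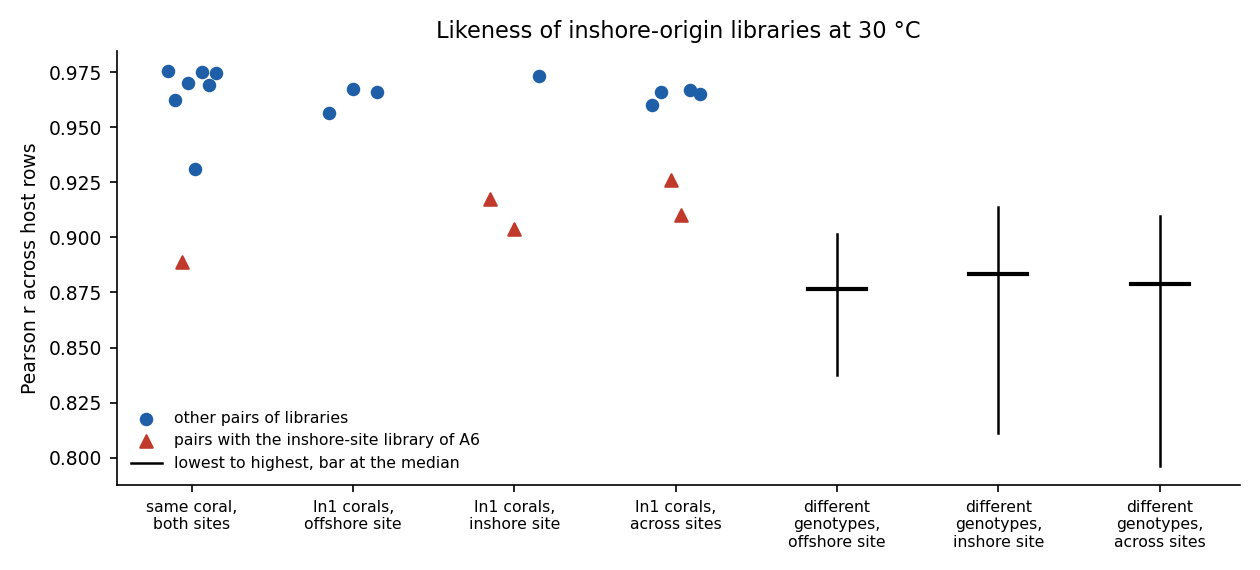
The y axis gives the Pearson correlation of log2(CPM + 1) across 25201 host rows for pairs of inshore-origin libraries at 30 °C, by kind of pair on the x axis. Points are single pairs, red triangles are pairs with the inshore-site library of A6, and black lines span the pairs of different genotypes with a bar at the median. Pairs of 1 genotype lie between 0.889 and 0.976 and the medians between genotypes at 0.876 to 0.883.

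The size of the difference between a coral's fragments varied. With a single fragment per site, it cannot be set apart from differences between single libraries. Of the 25201 rows, those that differed over 4-fold between the fragments at 30 °C numbered 771 in A6 and 503 in B3. The other 6 corals had between 32 (B2) and 149 (B6). In the 32 °C fragments the order was another, with 1463 in B3, 826 in B4, 573 in B1 and 125 in A6. The rest had between 61 (A5) and 214 (B2) at 32 °C. The standard deviation of the log2 changes across rows ran from 0.397 in A3 to 0.854 in A6. These changes had little in common. Between In1 corals they correlated across rows at −0.11 to 0.14 (3 pairs), and between corals of different genotype at −0.18 to 0.39 (25 pairs), with B3 and B6 the most alike at 0.387 and B1 and B3 next at 0.364. The correlation of its changes at 30 °C with those at 32 °C was 0.33 in B1, 0.15 in B4, 0.12 in A3, 0.0153 in A5 and 0.00191 in B6, and −0.05 in B2, −0.37 in A6 and −0.49 in B3. As a scale, pairs of fragments at 30 °C that differed in site had a median standard deviation of 0.458. Pairs of the same corals that differed in temperature had 0.587 at the offshore and 0.571 at the inshore site. These pairs share libraries and were not tested against each other.

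The D. trenchii share of all counts differed between sites in some corals and not in others. A3 held 0.506% at the offshore site against 16.7% at the inshore site, and A5 held 0.260% (Wilson 95% interval 0.256 to 0.265) against 6.73%. B3 followed the same direction with 0.109% against 2.39%, and B1 with 0.135% against 0.666%. A6 held 4.82% against 3.33% and B2 held 25.1% against 24.2%. B4 and B6 were low at both sites, with 0.153% against 0.0863% in B4 and 0.161% against 0.0936% in B6. The groups overlapped over most of their range, and intervals of this kind cover counting error only.

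Expressed as symbiont over host counts, the ratio was 39.4-fold lower at the offshore site in A3, 27.6-fold in A5, 22.4-fold in B3 and 4.98-fold in B1. It was 1.05-fold higher in B2, 1.47-fold in A6, 1.72-fold in B6 and 1.77-fold in B4. The mean log2 difference was −1.83 ± 2.71 (SD, n = 8, 4 lower and 4 higher), with an exact two-sided sign-flip p of 0.125 (0.15 adjusted over 6 tests). With In1 averaged to 1 unit it was −1.38 and the exact p was 0.25. A site difference in this ratio was therefore not shown for inshore-origin corals at 30 °C, and 3 corals of 1 genotype gave −5.30, −4.79 and 0.56. In bulk tissue a lower ratio may mean fewer D. trenchii cells, with or without other algae in their place, or less RNA per cell. These cannot be told apart here, and other symbiont genera were not analysed.

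At 32 °C the sign of the difference was that at 30 °C in 7 of 8 corals, lower at the offshore site in A3, A5, B1 and B3. The ratio at the offshore site was 79.1-fold lower in A3 and 52.2-fold lower in A5, while B3 and B1, at 2.79- and 2.22-fold lower, changed less than at 30 °C. A6, 1.55-fold lower at 32 °C, was the exception. B2, B4 and B6 were 1.006-, 1.008- and 1.72-fold higher, which for B2 and B4 is close to no change. The shares of B4 and B6 were too low at both temperatures for a direction to be read, as set out below. The mean log2 difference at 32 °C was −1.81 ± 2.69 (SD, n = 8, exact sign-flip p = 0.0938, 0.141 adjusted over 6 tests). The difference between the temperatures was −0.02 ± 1.43 (30 °C minus 32 °C, SD, n = 8, 2 lower and 6 higher, exact sign-flip p = 0.969). A mean difference between the shifts at 30 and 32 °C was therefore not shown.

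**Figure D4:**
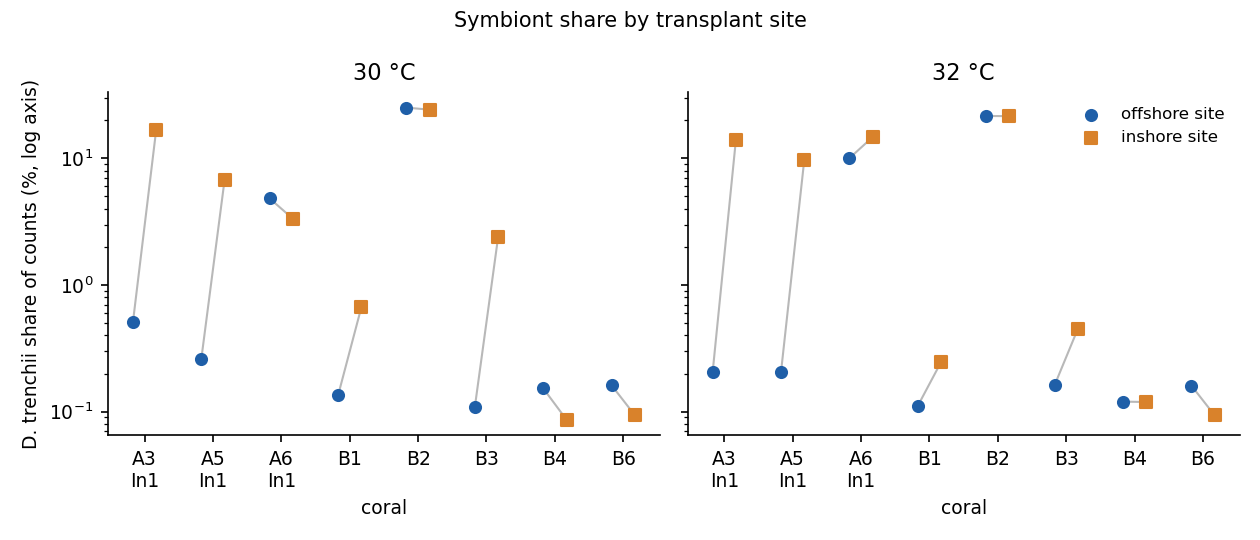
The y axis, on a log scale, gives the D. trenchii table's share of all counts in percent for each inshore-origin coral, at 30 °C on the left and 32 °C on the right. Blue circles are offshore-site fragments and orange squares inshore-site fragments of the same coral. A3 and A5 lie lower at the offshore site at both temperatures, in A3 at 0.506% against 16.7% at 30 °C, while B2 lies at 25.1 and 24.2% and B4 and B6 lie between 0.0863 and 0.161%.

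Libraries with a low share also held a different mix of symbiont rows. At 30 °C, B3, B4, B1 and B6 at the offshore site had 299 to 2440 symbiont rows with a count, and their 10 most abundant rows held 37.9 to 54.4% of symbiont counts. B4 and B6 at the inshore site were like them, with 41.9 to 48.9% in 10 rows. In B2, 39387 rows were found at the offshore and 38744 at the inshore site, and 10 rows held 2.68 and 2.85%. Drawn down to the same 4469 counts, B4 showed 255 symbiont rows at the offshore and 447 at the inshore site, whereas A6 showed 3588 and 3613.

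Dtrenchii_DN220051_c0_g1, a leading row of the symbiont table, varied little relative to host counts. It was the most abundant symbiont row in 6 of the 16 libraries. Scaled to host counts in the way of CPM, but to the plain host total, it lay between 82.1 and 170 at the offshore site and between 94.9 and 163 at the inshore site, although the share of the whole table ran from 0.0863 to 25.1% over these libraries. Its part of symbiont counts accordingly ran from 0.0375 to 8.96% at the offshore site and from 0.0319 to 13.4% at the inshore site. By contrast Dtrenchii_DN222528_c0_g1, the leading row in another 6 libraries, lay between 0 and 2460 on this scale at the offshore site and between 0 and 2021 at the inshore site, and never exceeded 0.741% of symbiont counts. Dtrenchii_DN219352_c0_g1, the leading row in 3 libraries, all from the offshore site, followed neither host counts nor the share. On this scale it lay between 48.4 and 197 at the offshore site and between 17.4 and 78.25 at the inshore site, higher at the offshore site in 8 of 8 corals. In B4 it held 761 counts at the offshore and 90 at the inshore site, or 11.1 and 2.01% of symbiont counts. At shares of 0.0863 to 0.161%, counts from symbionts and counts of rows that do not follow the share cannot be told apart. The direction of the ratio in B4 and B6 therefore cannot be read as one of the symbiont, and the folds of B1 and B3 rest on offshore-site libraries in that range.

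The test of single symbiont rows was limited by these low libraries. Only 165 symbiont rows had enough counts, and they held from 7.92 to 88.2% of a library's symbiont counts. Of these, 0 passed (0%; edgeR with coral as a block), the smallest adjusted p was 0.191, and DESeq2 also called 0. An unadjusted p under 0.05 was found for 36 rows (21.8%), 27 higher (16.4%) and 9 lower (5.45%). Over the 165 rows the median log2 fold change was −0.98. Levels here are scaled to symbiont counts, so rows that follow host counts, like Dtrenchii_DN220051_c0_g1, come out higher where the share is low. Whether the higher rows are of that kind was not tested, so their direction cannot be read as one of the symbiont. Leaving out coral B4 brought 1139 rows into the test and 23 calls, all higher at the offshore site. Without B6 there were 6 calls of 1088 and without B1 there were 2 of 938. In these 3 fits the median degrees of freedom of the test, residual plus prior, were 6834, 6528 and 5628, against 16.1 with all corals. The calls of these fits therefore rest on a spread that edgeR took as nearly known.

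The measured symbiont ratio changed less in inshore-origin than in offshore-origin corals between the same kinds of site at 30 °C. With In1 averaged, the mean log2 difference was −1.38 over 6 inshore-origin genotypes and −7.59 ± 0.48 (SD, n = 6) over 6 offshore-origin corals, each a genotype of its own. The difference of 6.20 had an exact two-sided permutation p of 0.00216, the smallest that 6 against 6 allow, and 0.0130 after adjustment over 6 tests. The changes of A3 and A5, −5.30 and −4.79, came closest to the offshore-origin range of −8.51 to −7.25. At the offshore site the offshore-origin libraries held shares of 0.0792 to 0.184%, in or near the range where symbiont counts cannot be told apart. B4 and B6 lay in that range at both sites and enter the mean of −1.38. That range limits how far the measured ratio can fall in either origin.

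Offshore-origin corals also gave host rows with which the inshore-origin corals could be read. In offshore-origin corals at 30 °C, 75 of 25308 rows differed between sites (0.296%; edgeR with coral as a block), 32 of them higher (0.126%) and 43 lower (0.17%) at the offshore site. With the log2 symbiont ratio as a term beside the coral block, 0 of the 75 were called. In these corals the ratio itself was lower at the offshore site in 6 of 6, so site and ratio moved together. Under that term the log2 fold changes of the rows named below were 8.79 for OFAVBQ_DN122952_c0_g1 (7.39 without the term), 12.7 for OFAVBQ_DN303957_c0_g1 (7.24), −8.36 for OFAVBQ_DN84687_c0_g1 (−11.01) and −6.56 for OFAVBQ_DN175037_c0_g1 (−10.8). Each had an edgeR adjusted p of 0.999942 under the term. Because site and ratio moved together, these estimates cannot set them apart. The offshore-origin libraries share no coral with the inshore-origin ones, but which lists to follow was decided with results of the series known. Of the lists, 9 higher and 9 lower rows sit in 9 assembly clusters that hold 1 of each direction.

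The 32 higher rows were also high at the offshore site in most inshore-origin corals. All 32 could be tested there, and 30 had a positive log2 fold change, with a median of 1.29 (−0.15 to 1.52) against −0.01 over all rows. An unadjusted p under 0.05 and a positive change were found for 29 of the 32, while 3.45% of all rows met both, yet 0 had an adjusted p under 0.05 in edgeR. The 32 rows moved together within corals, with 22 (B2) to 32 (B3) of them higher at the offshore site at 30 °C. They are therefore not independent readings, and the counts of rows given here do not measure how sure the difference is. DESeq2 called 15 of the 32, which are 15 of its 36 calls. Of the 17 rows that were higher in all 8 pairs at both temperatures, 14 were in this list of 32. At 32 °C, 29 of the 32 again had a positive change with an unadjusted p under 0.05, with a median log2 fold change of 1.61. Without the coral block 2 of the 32 had an unadjusted p under 0.05 with a positive change, and the median was 1.09.

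By coral, the summed level of these 32 rows at 30 °C was 1111 CPM at the offshore site against 404 CPM at the inshore site in A3, and 1075 against 450 CPM in A6. It was 1721 against 893 CPM in B4, 1205 against 655 CPM in B3, 1394 against 770 CPM in B6 and 1069 against 688 CPM in B1. A5 and B2 moved little, with 1027 against 966 CPM and 136 against 120 CPM. The sum was thus higher at the offshore site in 8 of 8 corals, by 1.06-fold in A5 to 2.75-fold in A3. B2 was the coral far below the rest at both sites, and it was also the coral with the highest D. trenchii share. In offshore-origin corals the same sum was 1179 ± 296 CPM at the offshore site and 111 ± 37.3 CPM at the inshore site (SD, n = 6 each), with shares of 11.1 to 26.8% at the inshore site.

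In inshore-origin corals at 30 °C the summed level was lowest in B2, where the symbiont share was highest. At 32 °C B2 was again lowest, with 137 CPM at the offshore and 105 CPM at the inshore site. The inshore-site library of B4 came next at 32 °C, with 192 CPM at a share of 0.119%, so a low sum did not always come with a high share. At 30 °C the 2 measures did not move together in every pair. A6 had a higher share at the offshore than at the inshore site, and its summed level was 2.39-fold higher there. In B4 and B6, where the share was too low at both sites for a direction to be read, the sums were 1.93- and 1.81-fold higher. A5, whose ratio was 27.6-fold lower at the offshore site, had a sum only 1.06-fold higher. With the log2 symbiont ratio as a term beside the coral block, 27 of the 32 rows kept an unadjusted p under 0.05 with a positive change, and the median log2 fold change was 1.42. The ratio covers D. trenchii alone and has no readable direction in B4 and B6, so this term cannot set site apart from symbionts. Whether these rows are host transcripts was not tested, since the files name none of them.

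OFAVBQ_DN122952_c0_g1, a row with one of the largest rises in offshore-origin corals, stood at a median of 32.8 CPM at the offshore site (1.06 to 50.8) and 17.1 CPM at the inshore site (0 to 23.1) in inshore-origin corals at 30 °C. It was higher at the offshore site in 8 of 8 corals, with a log2 fold change of 1.37 ± 0.32 (SE, edgeR adjusted p = 0.587). The low end at each site was set by B2, at 1.06 CPM against 0. OFAVBQ_DN303957_c0_g1, the other row named for its rise, lay at 8.58 CPM (0 to 11.8) against 4.63 CPM (0 to 6.87), with 0 counts in B2 at both sites and higher values at the offshore site in the other 7 corals. Its log2 fold change was 1.23 ± 0.28 (SE, edgeR adjusted p = 0.587).

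The 43 lower rows could mostly not be tested. Only 5 of them had enough counts to be tested in inshore-origin corals, with log2 fold changes of −1.83 to 0.33, and 1 of the 5 was lower with an unadjusted p under 0.05. Over all 43 rows the summed level at 30 °C was 31.5 CPM at the offshore site against 809 CPM at the inshore site in A3, 28.05 against 309.7 CPM in A5 and 46.4 against 114 CPM in B3. It was 16.6 against 34.1 CPM in B1. The sum was higher at the offshore site in A6 (204 against 135 CPM), B2 (1329 against 1288 CPM), B4 (15.4 against 9.47 CPM) and B6 (22.1 against 18.5 CPM). The 4 corals with a lower sum at the offshore site also had a lower symbiont ratio there. A6 and B2 had a higher ratio, and in B4 and B6 the share was in the range where no direction can be read.

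Most of the 43 rows were at or near 0 in libraries with a low D. trenchii share. In the 6 offshore-origin libraries of the offshore site, 32 of the 43 rows had at most 1 count each. In inshore-origin corals at 30 °C those 32 rows summed to 942 and 906 CPM in B2 at the offshore and inshore sites, where the share was 25.1 and 24.2%. In B4, where the share was 0.153 and 0.0863%, they summed to 0 and 0.186 CPM. OFAVBQ_DN84687_c0_g1 and OFAVBQ_DN175037_c0_g1, the rows named for their fall in offshore-origin corals, had 0 counts in all 6 libraries at the offshore site there and 53.01 ± 14.5 and 46.2 ± 13.1 CPM at the inshore site (SD, n = 6). In inshore-origin corals at 30 °C OFAVBQ_DN84687_c0_g1 ran from 0 to 68.5 CPM at the offshore site and from 0 to 71.3 CPM at the inshore site, lower at the offshore site in 5 of 8 corals. Whether symbiont sequence sits in the host table was not tested.

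**Figure D5:**
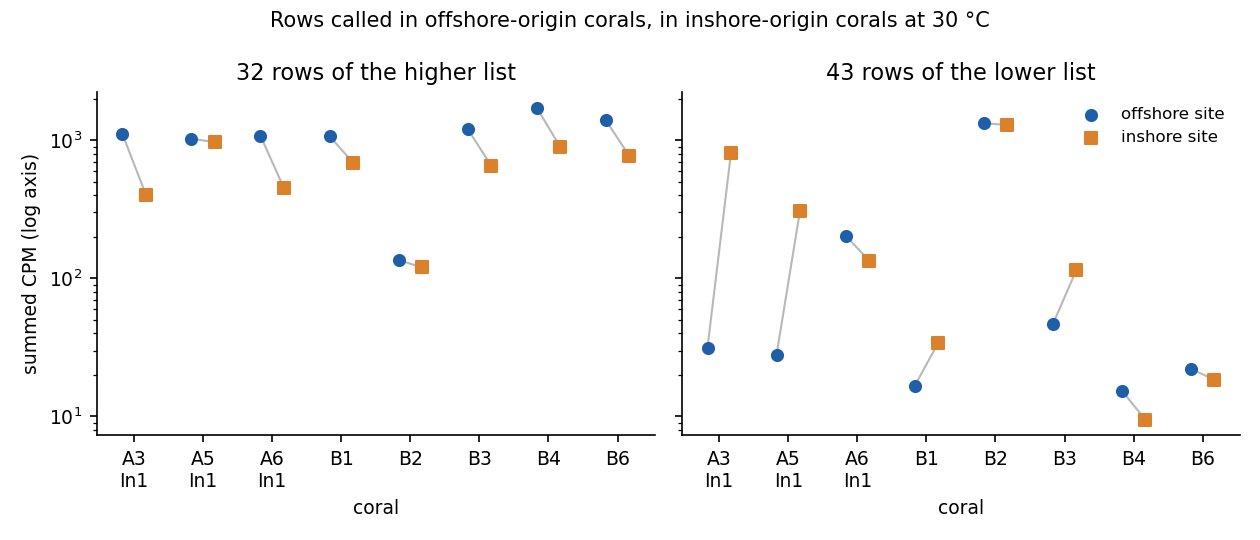
The y axis, on a log scale, gives the summed CPM of the host rows called higher (left, 32 rows) or lower (right, 43 rows) offshore in offshore-origin corals, measured in inshore-origin corals at 30 °C. Blue circles are offshore-site fragments and orange squares inshore-site fragments of the same coral. On the left the blue circle lies above the orange square in all 8 corals, with B2 lowest at 136 and 120 CPM, and on the right the corals split, with A3 at 31.5 against 809 CPM and A6 at 204 against 135 CPM.

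The site difference itself differed by origin for 30 of 30530 rows at 30 °C (0.0983%; edgeR, site by origin with coral as a block), 3 with a more positive difference in inshore-origin corals (0.00983%) and 27 with a more negative one (0.0884%). All 30 are in the lists above: 27 of the 32 higher rows and 3 of the 43 lower rows. The 27 rows thus had a smaller excess at the offshore site in inshore-origin corals. The median log2 fold change over the whole list of 32 was 1.29 in inshore-origin and 6.43 in offshore-origin corals. The lists were chosen by their calls in the same offshore-origin libraries that enter this test. That choice favours both the larger median in those corals and the overlap of the 30 rows with the lists. Many of these rows are at or near 0 in the inshore-site libraries of offshore-origin corals, so their fitted folds depend on the prior count. The call was 0 rows without the coral block, 6 without C4, 8 without C1 and 47 without A3.

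OFAVBQ_DN122952_c0_g1 was among the 27. In inshore-origin corals it averaged 30.3 ± 14.1 CPM at the offshore site and 13.3 ± 9.29 CPM at the inshore site (SD, n = 8 each), and in offshore-origin corals 31.3 ± 9.77 and 0.187 ± 0.458 CPM (SD, n = 6 each). The means of the 2 origins were thus close at the offshore site and far apart at the inshore site. OFAVBQ_DN212809_c4_g1, one of the 3 rows in the other direction, averaged 16.4 ± 17.9 CPM at the offshore site and 15.9 ± 19.997 CPM at the inshore site in inshore-origin corals (SD, n = 8 each), against 4.39 ± 1.73 and 45.7 ± 14.5 CPM in offshore-origin corals (SD, n = 6 each). OFAVBQ_DN221894_c1_g1 was similar, with 9.12 ± 14.4 and 13.7 ± 15.3 CPM in inshore-origin corals at the offshore and inshore sites, against 1.91 ± 0.858 and 39.6 ± 13.7 CPM in those of offshore origin. The difference between origins was 3.72 ± 0.59 for the first of these rows and 3.58 ± 0.63 for the second (log2, inshore minus offshore origin, SE, edgeR adjusted p = 0.0136 and 0.0296). The call of OFAVBQ_DN221894_c1_g1 was lost in 11 of 14 fits that leave out a coral (edgeR adjusted p = 0.00112 to 0.113) and that of OFAVBQ_DN212809_c4_g1 without C1 or C4 (edgeR adjusted p = 0.0569 and 0.0552). Without the coral block both were lost.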

How the data were processed

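Stranded mRNA libraries were made from column-purified total RNA, per the labels' protocols. The submitters' processing notes name Trimmomatic 0.36 and RSEM, and the tables are named for kallisto. The quantifier's version and the reference assembly were not given in the sources used here. The values the authors deposited are estimated counts for each isoform, not normalized. As deposited, 74.7% of host and 99.3% of symbiont values were whole, and all were rounded before testing. Of each table's columns, 1 had a name that matches no label and stayed unused, leaving 55 libraries.

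Each comparison was fitted on its own libraries by the quasi-likelihood F test of edgeR 4.0.16 (R 4.3.3), with TMM scaling, a filterByExpr minimum count of 10 and Benjamini-Hochberg adjustment at 0.05 over all rows tested. Fragments share their coral, so coral entered as a block. The deviations of a coral's 2 libraries from the site means correlated at 0.200 to 0.798 over the 8 corals. CPM are host counts over the TMM-adjusted host total of the library, over the 55 libraries, and correlations used log2(CPM + 1). Symbiont ratios were tested by exact sign-flip or exact permutation tests, two-sided. The rule for named rows took, per comparison, the 2 largest rises and 2 largest falls among rows past the adjusted threshold whose mean log2 CPM reached 1 and whose direction was shared by at least 75% of pairs (interactions without the last condition). Alternatives were RLE factors, DESeq2 1.42.0, no low-count filter, no block, each coral left out, In1 summed, the symbiont ratio or library number as a term, library-number ranges, 1 fit of 55 libraries and a 2-fold limit. Thinned counts and leaving out A3 and A5 were added after the data were seen. The libraries, lists and rows to follow were chosen with earlier results of these data known.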

Additional observations from a re-analysis of the deposited data

Results flagged for a closer look

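In 16 groups of 8 values searched for a value far from the rest, 3 were found, and chance marks about 1 in 20 groups. B2 lay far below the other corals in the summed level of the 32 rows that offshore-origin corals held higher offshore, at a log2 level of 7.09 in its offshore-site and 6.92 in its inshore-site library. The D. trenchii share of B2, the highest of the 8 corals, was 25.1 and 24.2% at these sites, and its part in the result was not tested. A5 lay far above the other corals in OFAVBQ_DN197553_c6_g3 at the inshore site, at 3.92 as log2(CPM + 1).

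Effects that differed between origins under the same site contrast at 30 °C were the 30 host rows of the site-by-origin test and the change of the log2 symbiont ratio, 6.20 higher in inshore-origin than in offshore-origin genotypes. The named rows among the 30, all as inshore minus offshore origin on the log2 scale, were OFAVBQ_DN212809_c4_g1 at 3.72, OFAVBQ_DN221894_c1_g1 at 3.58, OFAVBQ_DN122952_c0_g1 at −5.99 and OFAVBQ_DN303957_c0_g1 at −6.00. For the last pair, 5 of 6 offshore-origin libraries at the inshore site had 0 counts, so the size of these folds depends on the prior count and is no bound.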

How the results depend on the processing

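For the site difference of inshore-origin corals at 30 °C called host rows numbered 36 with DESeq2 and 764 without the low-count filter. Without that filter the median degrees of freedom of the test, residual plus prior, rose to 552027 against 11.6 with it. All other settings run gave 0, and no library stood apart from the 16, so leaving such libraries out gave no value. At 32 °C the count of 0 became 45 with DESeq2, 262 without the filter and 3 without libraries that stand apart. In offshore-origin corals the 75 became 144 with DESeq2, 570 without the filter and 116 without libraries that stand apart. With a coral left out it was 64 to 108. With the symbiont ratio as a term it was 0, and the 4 named rows each had an edgeR adjusted p of 0.999942. For site by temperature the 0 became 25 with DESeq2, 1 without the filter and 0 to 1 with a coral left out. For site by origin the 30 became 58 with DESeq2, 475 without the filter, 0 without the replicate block and 6 to 47 with a coral left out. For symbiont rows the 0 became 8 without the filter and 0 to 23 with a coral left out. For these counts the cause was not tested.

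The block for coral pairs changed no other count of calls past 1.5 times. For the symbiont ratio, dropping the pairing gave an exact permutation p of 0.254 beside the same mean of −1.83, and leaving out a coral moved that mean between −2.21 and −1.34. Of the results for single rows, 171 were on the same side of the threshold in the alternatives, 6 passed it and 21 no longer did, with none reversed. The 16 libraries span 2 ranges of library numbers, with 3 coral pairs wholly in 1 to 16 and 2 in 17 to 56. Each range gave 0 calls, and so did a term for the range. Symbiont totals of 4469 to 1545666 counts limit what can be said of single symbiont rows.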
